A study of Mus musculus with 16 samples.

Results

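The genes that add, maintain and remove methyl groups on DNA were followed across 16 microarrays of mouse fibroblasts, embryonic stem (ES) cells and induced pluripotent stem (iPS) cells. Every probe whose gene name on the array was Dnmt1, Dnmt3a, Dnmt3b, Dnmt3l, Uhrf1, Tet1, Tet2 or Tet3 was taken. All 8 genes were found, among 28095 gene names on the array, and they were covered by 14 of its 41174 probes. Dnmt3a and Tet3 had 3 probes each, Uhrf1 and Tet2 had 2 each, and the other 4 genes had 1. All 14 probes were well above background, as called by the scanner software, on at least 1 array and entered the tests, and 12 were well above background on all 16 arrays.

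The study reprogrammed embryonic fibroblasts with a human artificial chromosome (HAC), a vector that stays outside the host chromosomes, and asked how close the resulting lines came to ES cells. The arrays held C57BL/6 embryonic fibroblasts (MEF, 1 array), the ES lines B6ES (C57BL/6) and TT2 (C57BL/6 x CBA), and the iPS line 20D17 (C57BL/6 x DBA), made with retrovirus vectors. A group of 4 clones, 1-A3, 1-B, 1-C3 and 1-D6 (iHAC1-iPS), carried iHAC1, with 2 copies each of Klf4, c-Myc, Sox2 and Oct4. Another 4 clones, 2-B1, 2-C6, 2-E and 2-N (iHAC2-iPS), carried iHAC2, which holds the same cassettes with a p53 knockdown construct and 2 more copies of Oct4. From each of them 1 line without the vector was sorted, F-B1 from 2-B1, F-C5 from 2-C6, F-E4 from 2-E and F-N7 from 2-N (iHAC-free iPS). All HAC-derived lines had a C57BL/6 background and started from MEFs that also received miR-294 and miR-295 mimics, and the reprogramming factors were driven by the CAG promoter. Each line is a clone measured on 1 array, so the p-values measure the spread between clones, and MEF and 20D17, with 1 array each, entered no test.

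Methylation of cytosine in CpG dinucleotides is set by Dnmt3a and Dnmt3b, the de novo methyltransferases, which act with Dnmt3l, a related protein without catalytic activity that stimulates both. Dnmt1 copies the pattern to the new strand at replication and is brought to hemimethylated sites by Uhrf1. The Tet enzymes oxidise 5-methylcytosine, a step towards its removal. Mouse ES cells are known for high Dnmt3b, Dnmt3l, Tet1 and Tet2, whereas fibroblasts hardly use Dnmt3l.

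Levels are given as log2 of the signal relative to the 75th percentile of the same array, so a level can be compared between arrays for 1 probe but not between probes. A gene was called different when the limma adjusted p-value over all 31425 probes tested was below 0.05 and the change was at least 2-fold. The share of spots well above background was 54.2% to 65.8%, with no saturated spot. It was 54.2% to 59.9% in iHAC2-iPS, 59.4% to 63.0% in iHAC-free iPS and 61.7% to 65.8% on the other arrays. The arrays lay on 4 slides scanned in 2 sessions: MEF, ES, 20D17 and iHAC1-iPS in session 1, iHAC2-iPS and iHAC-free iPS in session 2. The session and the group therefore cannot be told apart where iHAC2-iPS or iHAC-free iPS is set against ES or iHAC1-iPS. Of 5 pluripotent marker genes, 4 (Pou5f1, Zfp42, Esrrb and Tdgf1) had a probe under their symbol. All 4 were well above background on every ES, 20D17, iHAC2-iPS and iHAC-free array, and between 2 and 4 of them in the iHAC1-iPS clones. The study described the iHAC1-iPS clones as only partially reprogrammed. The ES and iPS lines were grown on fibroblast feeder cells, and all 8 fibroblast markers were well above background on all 16 arrays. Their mean log2 level was 4.49 in MEF, 1.42 and 2.84 in B6ES and TT2, 3.21 to 4.27 in iHAC1-iPS, 1.98 to 3.99 in iHAC2-iPS and 2.96 to 3.78 in iHAC-free iPS. Fewer cells of a type and less RNA per cell cannot be told apart in such bulk samples.

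In iHAC1-iPS clones, 4 of the 8 genes differed from ES cells. Dnmt3l, Dnmt3a and Tet1 were lower, and Tet3 was higher. Among all 21220 genes tested, with 1 probe each, 14.7% were called in this comparison, 7.57% as lower and 7.1% as higher. The median difference of the 8 genes was -1.48 on the log2 scale, and that of all genes was 0.05. Against iHAC2-iPS clones, 6 of the 8 genes were called in iHAC1-iPS, 5 lower (Dnmt3l, Dnmt3b, Tet1, Dnmt3a and Tet2) and 1 higher (Tet3), with 20.3% of all genes called, 11.6% as lower and 8.67% as higher. None of the 8 was called in iHAC2-iPS against ES (6.36% of all genes were called), in iHAC-free iPS against ES (0.368%) or in iHAC2-iPS against iHAC-free iPS (0.806%). In these last 3 comparisons 0 of the 8 genes had an unadjusted p-value below 0.05 by limma, the only tool run, on the brightest probe that stands for each gene. Other probes of Uhrf1, Tet2 and Tet3 did in some of them, without a call. Dnmt1 and Uhrf1 were called in no comparison.

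**Figure D1:**
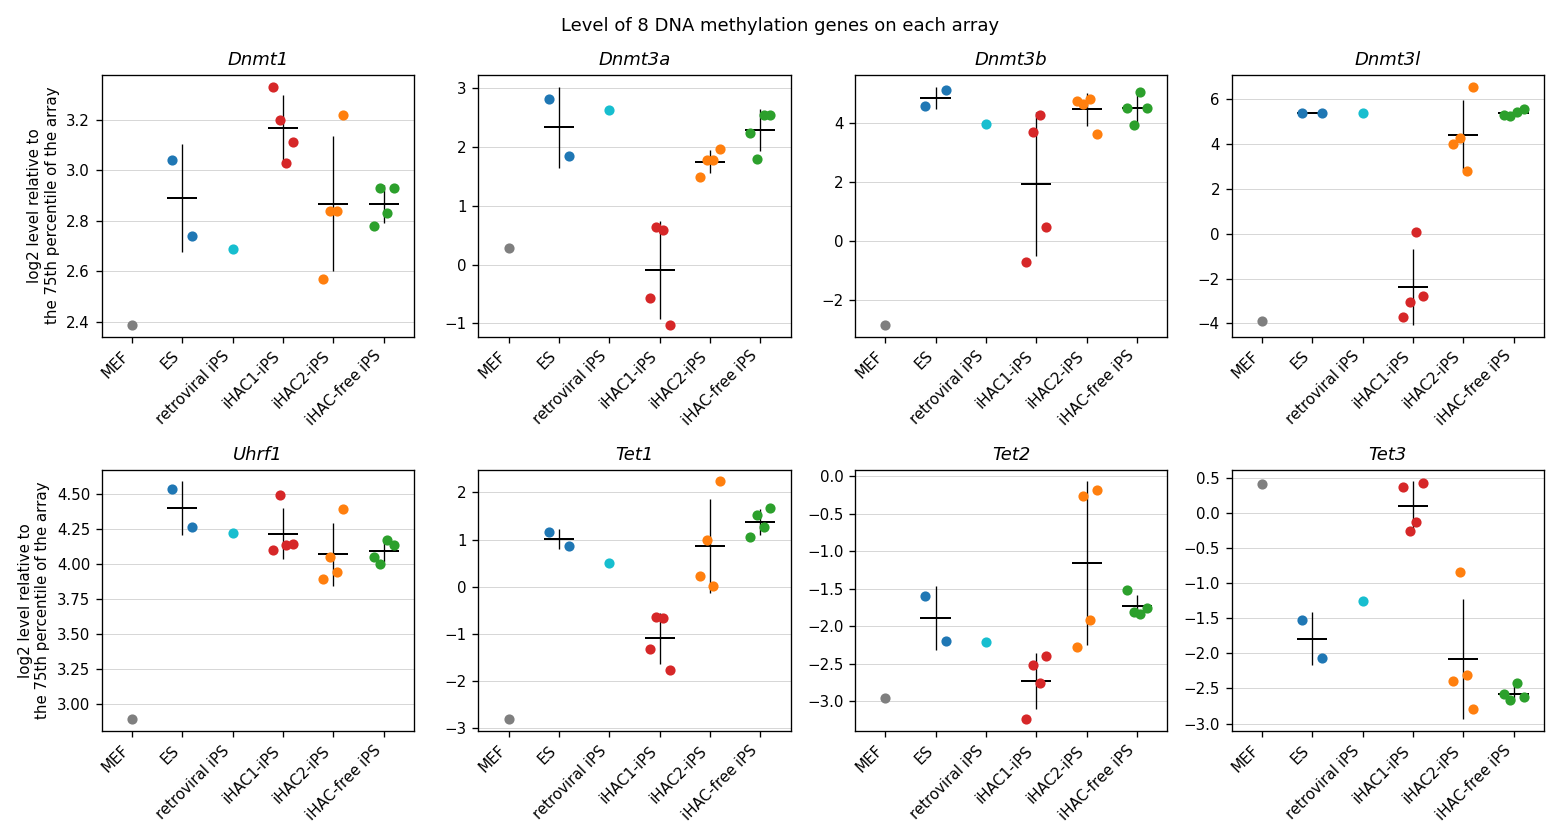
Log2 level relative to the 75th percentile of the array (vertical axes, a separate scale in each panel) of the probe that stands for each of the 8 genes, with 1 point per array in 6 groups; horizontal bars are group means and vertical bars 1 SD. Dnmt3l, Dnmt3a and Tet1 of the iHAC1-iPS clones lie below those of ES and iHAC-free iPS, Tet3 lies above them, and Dnmt1 and Uhrf1 span a narrow range outside MEF.

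The largest difference among the 8 genes was that of Dnmt3l, the regulatory partner of the de novo enzymes, measured by probe A_51_P496720 (mm9, chromosome 10, 77526112 to 77526171). Its log2 level was -3.91 in MEF, 5.39 in B6ES, 5.38 in TT2 and 5.39 in 20D17. In 1-A3, 1-B, 1-C3 and 1-D6, all with iHAC1, it was -3.73, -3.05, 0.09 and -2.77. The clones 1-A3, 1-B and 1-D6 lay near the fibroblast level, and 1-C3 lay between fibroblasts and ES cells. With iHAC2, 2-B1, 2-C6, 2-E and 2-N had 3.99, 4.27, 2.81 and 6.55, and the lines derived from them, in the same order here and for the other genes, had 5.29, 5.23, 5.43 and 5.56. All iHAC1-iPS clones were below every other line except MEF. The log2 difference of the iHAC1-iPS mean from that of ES was -7.75 (SE 1.00, adjusted p = 0.000438, n = 4 and 2), and the mean was 109-fold below that of iHAC2-iPS (-6.77, SE 0.81, adjusted p = 0.000185, n = 4 and 4). The call against ES remained when any 1 array was left out. On the slide that held 1-D6 together with both ES lines, 1-D6 differed from the ES mean by -8.15 on the log2 scale. On that slide the difference of 1-D6 from ES was -4.36 for Dnmt3b, -3.35 for Dnmt3a, -2.78 for Tet1 and 2.22 for Tet3, the directions of the group means. Among the iHAC1-iPS clones, 1-D6 had the lowest Dnmt3a and Tet1 levels and the highest Tet3 level on the brightest probes. The other iHAC1-iPS clones shared no slide with an ES line. Dnmt3l was also one of the marker genes that the study assayed by qRT-PCR, so its choice was not independent of these lines.

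The reference promoters of Dnmt3l and Dnmt3b are shown because the 2 genes act together, both were low in some iHAC1-iPS clones, and their promoters differ in CpG content, the substrate of these enzymes. The 250 bases upstream of the first annotated start are given from RefSeq (GRCm38.p6, another build than the mm9 of the probes), on the strand of the gene and from 5′ to 3′, with each CpG in capitals. The window of Dnmt3l is chr10:78042037-78042286 (plus strand) and that of Dnmt3b is chr2:153649199-153649448 (plus strand).
Dnmt3l: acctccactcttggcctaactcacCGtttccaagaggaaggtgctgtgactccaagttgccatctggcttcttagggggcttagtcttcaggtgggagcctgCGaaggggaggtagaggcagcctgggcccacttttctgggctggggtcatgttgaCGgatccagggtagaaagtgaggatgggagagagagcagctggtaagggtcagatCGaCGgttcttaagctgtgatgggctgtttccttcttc
Dnmt3b: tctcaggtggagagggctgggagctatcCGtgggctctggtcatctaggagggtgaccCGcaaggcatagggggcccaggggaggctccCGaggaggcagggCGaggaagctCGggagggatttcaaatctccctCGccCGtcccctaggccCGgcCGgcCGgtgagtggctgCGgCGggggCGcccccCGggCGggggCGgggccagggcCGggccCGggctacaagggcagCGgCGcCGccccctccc
The Dnmt3l window held 5 CpG, and 55.6% of the 32851 mouse promoters in the table held at least as many in the same length. The windows of the other 2 annotated Dnmt3l starts held 4 and 3. The Dnmt3b window held 21 CpG, a number reached by 16.3% of promoters. The median over all promoters was 6. Dnmt3a held 38 CpG upstream of its first start, reached by 1.88% of promoters. The Sp1 box GGGCGG, searched on both strands, was present in 32.7% of all windows, 3 times in that of Dnmt3b and not in that of the first Dnmt3l start. The window of the second Dnmt3l start held it 2 times. Which start was used in these lines was not tested. The octamer ATGCAAAT, the binding sequence of Oct factors, was present in 1.6% of all windows and in none of those of the 8 genes.

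Dnmt3b, a catalytic de novo enzyme, split the iHAC1-iPS clones. Its probe A_51_P341540 (mm9, chromosome 2, 153513083 to 153513142) gave a log2 level of -2.82 in MEF, 4.60 in B6ES, 5.13 in TT2 and 3.98 in 20D17. In 1-A3, 1-B, 1-C3 and 1-D6 the level was -0.70, 3.71, 4.29 and 0.50. Thus 1-B and 1-C3 lay above the iHAC2-iPS clone 2-N (3.65) but below the other iHAC2-iPS clones (4.67 to 4.82). The clones 1-A3 and 1-D6 lay below all ES and other iPS lines and above MEF. The iHAC-free lines had 4.51, 3.94, 5.05 and 4.51. The mean of iHAC1-iPS was 7.53-fold below that of ES (log2 difference -2.91, SE 1.1), all 4 clones were below both ES lines, and the difference was not called (adjusted p = 0.0794). Without 1-B or without 1-C3 it was called (-3.50 and -3.69, adjusted p = 0.0407 and 0.0202). Against iHAC2-iPS the mean was 5.76-fold lower (log2 difference -2.53, SE 0.90, adjusted p = 0.0430), with groups that overlapped through 2-N alone. That call was lost when only these 2 groups were fitted (adjusted p = 0.113) and when 1-A3, 1-D6, 2-B1, 2-C6 or 2-E was left out (adjusted p between 0.0708 and 0.123).

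Dnmt3a, the other catalytic de novo enzyme, split the same clones over a smaller range. Its brightest probe, A_52_P76146 (mm9, chromosome 12, 3906868 to 3907649, across a splice junction), gave a log2 level of 0.28 in MEF, 2.82 in B6ES, 1.84 in TT2 and 2.62 in 20D17. In 1-A3, 1-B, 1-C3 and 1-D6 the level was -0.56, 0.64, 0.59 and -1.02. The iHAC2-iPS clones had 1.49, 1.78, 1.77 and 1.96, and the iHAC-free lines had 2.24, 1.79, 2.55 and 2.55. All iHAC1-iPS clones were below every ES and other iPS line, and 1-A3 and 1-D6 were also below MEF. The mean of iHAC1-iPS was 5.33-fold below that of ES (log2 difference -2.41, SE 0.45, adjusted p = 0.00334) and 3.57-fold below that of iHAC2-iPS (-1.84, SE 0.37, adjusted p = 0.00281). Without B6ES the difference from ES was -1.92 and was not called (adjusted p = 0.0650).

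The 3 probes of Dnmt3a did not give the same picture. Probe A_52_P169048 (3908227 to 3908286 of chromosome 12) followed the brightest probe, with -2.35, 0.12, 0.30 and -2.12 in the iHAC1-iPS clones against 2.63 and 1.75 in B6ES and TT2, and it was called against ES (log2 difference -3.20, SE 0.68, adjusted p = 0.00682) and against iHAC2-iPS (-1.93, SE 0.55, adjusted p = 0.0176). Probe A_52_P30497, farther along the transcript (3912590 to 3912649), ranged only from -2.33 to -1.31 over all 16 arrays, with the highest level in MEF. Its difference between iHAC1-iPS and ES was -0.03, with a 95% confidence interval of -0.40 to 0.33. The mean of all 3 probes kept the call in both comparisons, at -1.88 against ES and -1.25 against iHAC2-iPS.

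**Figure D2:**
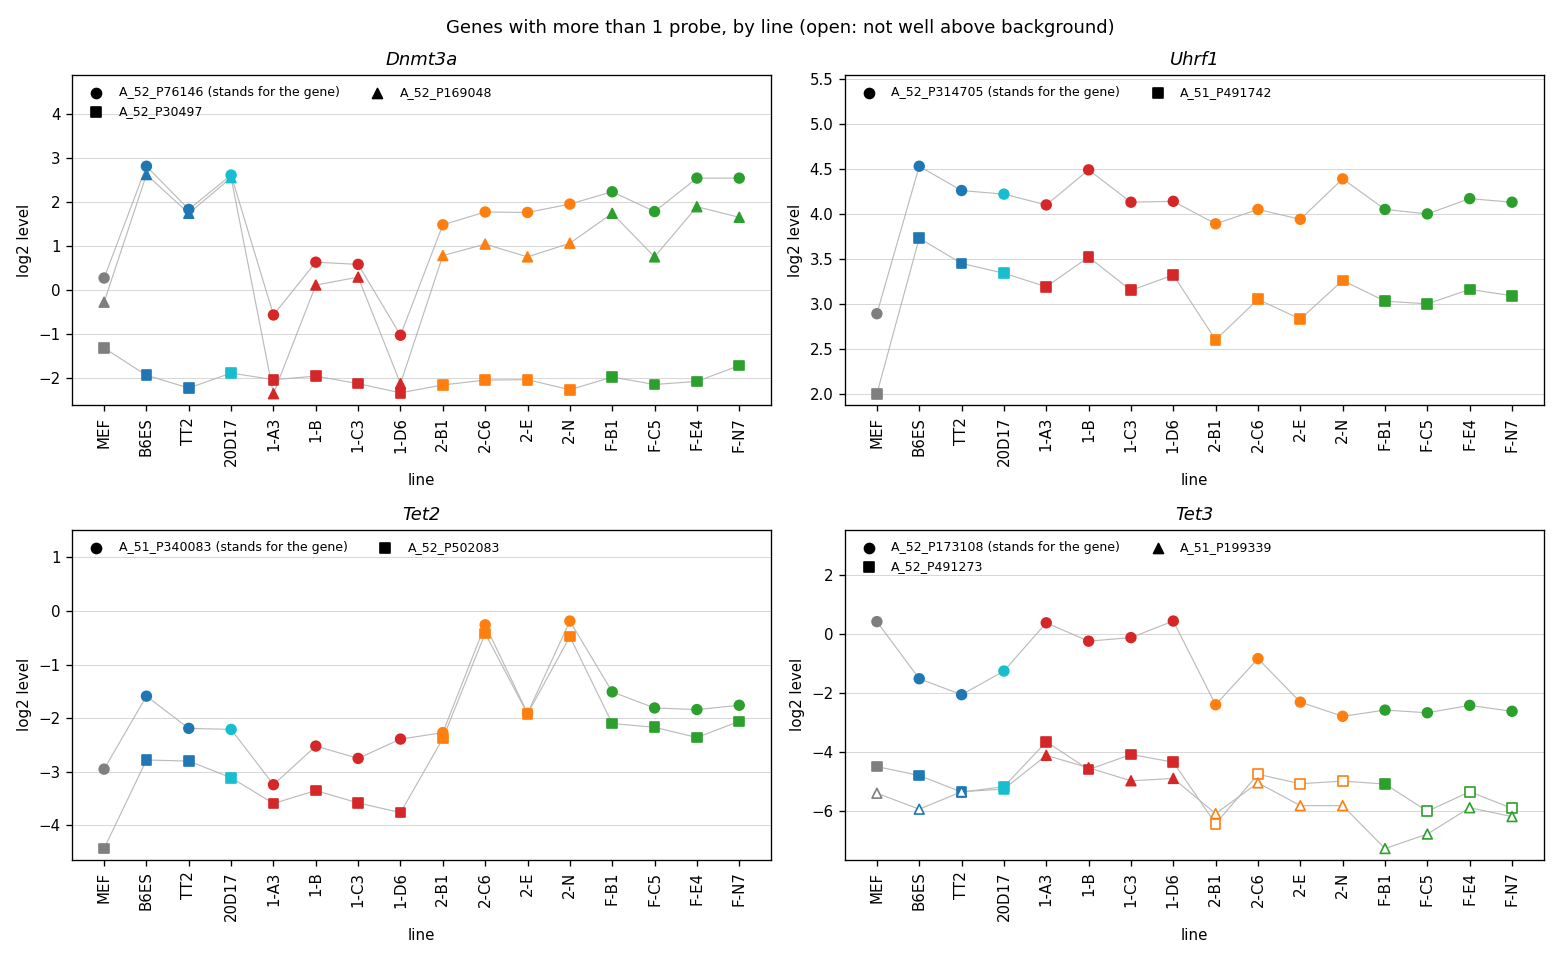
Log2 level (vertical axes) of every probe of Dnmt3a, Uhrf1, Tet2 and Tet3 on the 16 lines (horizontal axes), with 1 symbol shape per probe, colours for the 6 groups and open symbols for values not well above background. The 2 upper probes of Dnmt3a dip in the iHAC1-iPS clones while the third stays between -2.33 and -1.31, and both Tet2 probes peak in 2-C6 and 2-N.

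The maintenance genes were level across the ES and iPS lines. Dnmt1, measured by A_51_P195573 (mm9, chromosome 9, 20711973 to 20712341, on the minus strand), had a log2 level of 2.39 in MEF, 3.04 and 2.74 in B6ES and TT2, and 2.69 in 20D17. Its range was 3.03 to 3.33 in iHAC1-iPS, 2.57 to 3.22 in iHAC2-iPS and 2.78 to 2.93 in iHAC-free iPS. The lowest value of the 16 was that of MEF, and each HAC-derived group overlapped ES. The difference between iHAC1-iPS and ES was 0.28, with a 95% confidence interval of -0.11 to 0.67, and between iHAC-free iPS and ES it was -0.03 (-0.41 to 0.36). Uhrf1 behaved likewise on A_52_P314705 (mm9, chromosome 17, 56462657 to 56462716), with 2.89 in MEF and 3.89 to 4.53 in all other lines. The interval of its difference between iHAC1-iPS and ES was -0.57 to 0.20. Its second probe, A_51_P491742 (56462554 to 56462613), was lower in all 4 iHAC2-iPS clones (2.60 to 3.26) than in B6ES (3.73) and TT2 (3.45), a difference of -0.65 with adjusted p = 0.0460 that was below 2-fold and so was not called. The brighter Uhrf1 probe gave -0.33 for the same comparison (adjusted p = 0.224).

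The 3 Tet genes did not move together in iHAC1-iPS. Tet1, the Tet enzyme best known from ES cells, was measured by A_51_P512172 (mm9, chromosome 10, 62276042 to 62276101, minus strand). Its log2 level was -2.81 in MEF, 1.17 in B6ES, 0.87 in TT2 and 0.51 in 20D17. In 1-A3, 1-B, 1-C3 and 1-D6 it was -1.31, -0.64, -0.67 and -1.76, so that all 4 clones lay between MEF and the ES and other iPS lines. With iHAC2, 2-B1, 2-C6, 2-E and 2-N had 0.23, 1.00, 0.02 and 2.23, and the iHAC-free lines had 1.05, 1.53, 1.26 and 1.66. The mean of iHAC1-iPS was 4.33-fold below that of ES (log2 difference -2.11, SE 0.52, adjusted p = 0.0138) and 3.90-fold below that of iHAC2-iPS (-1.96, SE 0.42, adjusted p = 0.00431). With either ES line left out the difference from ES was no longer called (-1.97 without B6ES, adjusted p = 0.119, and -2.26 without TT2, adjusted p = 0.0581).

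Tet3, known from the oocyte and from differentiated cells, moved the opposite way. On its brightest probe, A_52_P173108 (mm9, chromosome 6, 83312763 to 83312822, minus strand), the log2 level was 0.41 in MEF, -1.52 in B6ES, -2.06 in TT2 and -1.26 in 20D17. The clones 1-A3, 1-B, 1-C3 and 1-D6 had 0.37, -0.25, -0.13 and 0.43. All 4 were therefore above every ES and other iPS line, and 1-A3 and 1-D6 were within 0.1 of MEF. In iHAC2-iPS the levels were -2.40, -0.84, -2.31 and -2.79, with 2-C6 above the other 3 clones, and in iHAC-free iPS they were -2.58, -2.67, -2.42 and -2.62. The mean of iHAC1-iPS was 3.72-fold above that of ES (log2 difference 1.90, SE 0.43, adjusted p = 0.00898) and 4.56-fold above that of iHAC2-iPS (2.19, SE 0.35, adjusted p = 0.000787). Without TT2 the difference from ES was 1.63 and was not called (adjusted p = 0.0821).

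The other Tet3 probes were dim, and neither was called against ES. A_52_P491273 (83352743 to 83352802) was well above background on 9 arrays, with -3.65, -4.59, -4.08 and -4.34 in the iHAC1-iPS clones, and on no iHAC2-iPS array. Both ES lines measured it, and its difference from ES was 0.91 (adjusted p = 0.166). The iHAC2-iPS signals overlapped those of ES, with a difference of -0.24 (adjusted p = 0.741). The lowest signal called well above background was -5.03 to -4.29 on the iHAC2-iPS arrays and -5.51 and -5.8 on the ES arrays. This Tet3 probe was called higher in iHAC1-iPS than in iHAC2-iPS (adjusted p = 0.0262). Its fitted log2 difference of 1.14 uses signals not well above background. As a bound, which the p-value does not test, the signal exceeded that of iHAC2-iPS by at least 1.47-fold. The bound sets each dim array at the lowest signal called well above background there, or at its own signal where that was higher. A_51_P199339 (83318731 to 83318790) was well above background only in the 4 iHAC1-iPS clones and in 20D17. In iHAC1-iPS it was at least 1.07-fold higher than in iHAC2-iPS and at least 1.74-fold higher than in ES. The fitted differences were 1.06 (adjusted p = 0.0233, called) and 1.01 (adjusted p = 0.0919, not called). The fibroblast markers, given above, had a mean level of 3.21 to 4.27 in iHAC1-iPS and 1.42 and 2.84 in the ES lines. Of the 8, 3 were called higher in iHAC1-iPS than in ES, beside 7.1% of all genes. The part of these markers in the Tet3 difference was not tested.

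The promoters of Tet1 and Tet3 are shown because these 2 genes of the same family moved in opposite directions. The windows are chr10:62887325-62887574 and chr6:83441679-83441928 (GRCm38.p6, both on the minus strand), written and marked as for Dnmt3l.
Tet1: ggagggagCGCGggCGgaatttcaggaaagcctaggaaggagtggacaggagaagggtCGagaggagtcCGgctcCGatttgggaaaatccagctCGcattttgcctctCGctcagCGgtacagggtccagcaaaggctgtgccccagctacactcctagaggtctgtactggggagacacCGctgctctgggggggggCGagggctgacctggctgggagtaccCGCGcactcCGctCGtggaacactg
Tet3: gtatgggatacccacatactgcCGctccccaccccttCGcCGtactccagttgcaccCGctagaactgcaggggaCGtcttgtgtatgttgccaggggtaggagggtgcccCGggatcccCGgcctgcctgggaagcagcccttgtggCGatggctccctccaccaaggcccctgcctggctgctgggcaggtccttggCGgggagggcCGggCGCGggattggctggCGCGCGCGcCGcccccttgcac
They held 15 and 17 CpG, numbers reached by 27.3% and 23.5% of all promoters, and each held the GGGCGG box once. The Tet2 window held 51 CpG, reached by 0.067% of promoters. The E-box CACGTG, present in 6.02% of all windows, was in neither of the printed Tet windows nor in that of Tet2.

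Tet2 differed among the iHAC2-iPS clones. On A_51_P340083 (mm9, chromosome 3, 133127357 to 133127416, minus strand) the log2 level was -2.95 in MEF, -1.59 in B6ES, -2.19 in TT2 and -2.21 in 20D17. With iHAC2, 2-B1 and 2-E had -2.27 and -1.91, whereas 2-C6 and 2-N had -0.26 and -0.19 and stood above all other lines. The iHAC1-iPS clones had -3.24, -2.52, -2.75 and -2.39, and the iHAC-free lines had -1.51, -1.81, -1.84 and -1.76. The mean of iHAC1-iPS was 2.97-fold below that of iHAC2-iPS (log2 difference -1.57, SE 0.43, adjusted p = 0.0136), without overlap, and this call was lost when only these 2 groups were fitted (adjusted p = 0.0538). The second probe, A_52_P502083 (133129158 to 133129217), gave -2.38, -0.42, -1.92 and -0.48 in the iHAC2-iPS clones, the same 2 on top, and a difference of -2.27 (SE 0.37, adjusted p = 0.000915). Against ES the iHAC2-iPS mean was 0.73 higher on the first probe (adjusted p = 0.357) and 1.49 higher on the second (adjusted p = 0.0522), and neither was called. The clones 2-C6 and 2-N were hybridised on different slides.

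**Figure D3:**
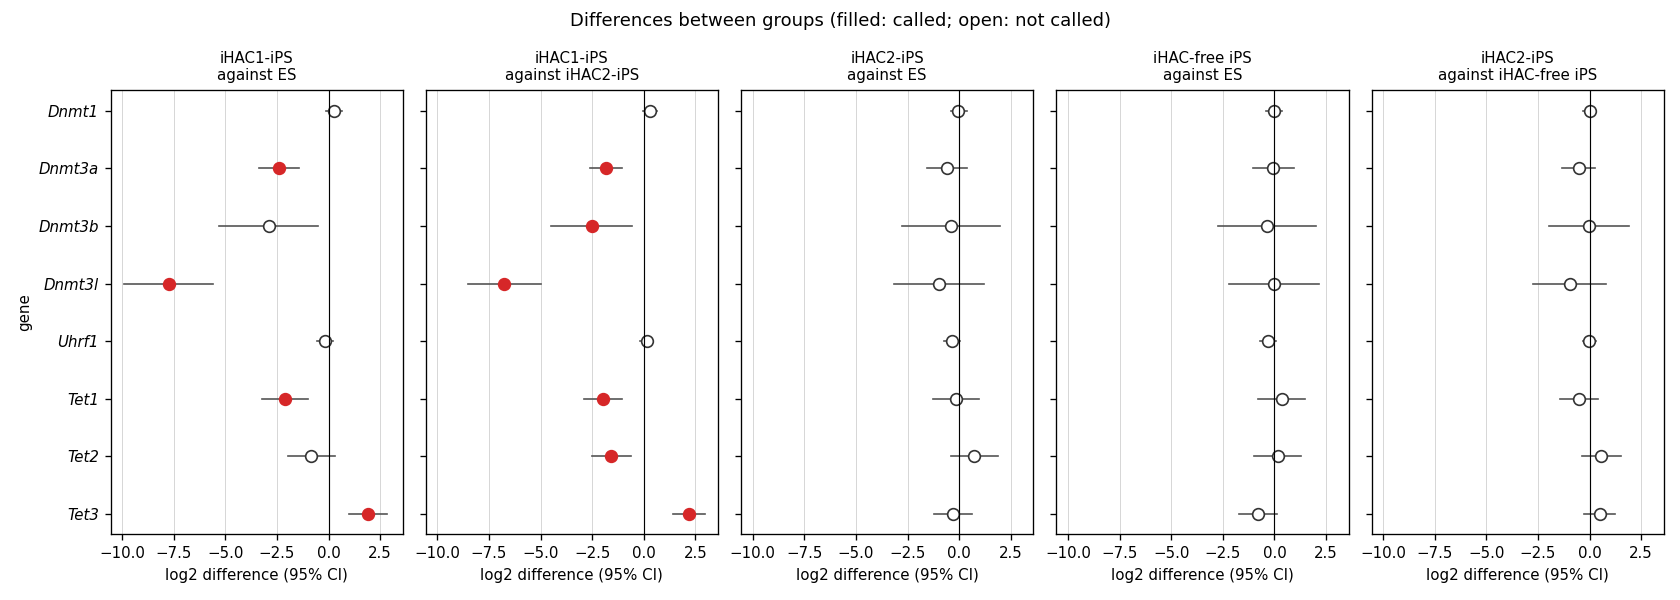
Log2 difference between group means (horizontal axes, with 95% confidence intervals) of the 8 genes in the 5 comparisons; filled points were called and open points were not. The calls lie in the panels with iHAC1-iPS, where Dnmt3l reaches -7.75 against ES and -6.77 against iHAC2-iPS and Tet3 is the gene above 0 that was called.

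The differences among the iHAC1-iPS clones ran alike in several of the genes. The clones 1-B and 1-C3 were above 1-A3 and 1-D6 in Dnmt3b, in both responsive Dnmt3a probes and in Tet1, and below them on the brightest Tet3 probe, though not on the dim ones. For Dnmt3l only 1-C3 stood apart. The mean level of the 4 pluripotent markers was -1.52 in 1-A3 and -1.39 in 1-D6, against 0.22 in 1-B and 0.66 in 1-C3. Pou5f1, the Oct4 gene that the vectors also carry, is one of the 4 and had a mean level of 6.61 in iHAC1-iPS and 3.82 in ES. The mean level of the fibroblast markers was 4.04 and 4.27 against 3.58 and 3.21. Over 3 markers of primed epiblast and early mesoderm it was -3.35 in 1-A3 and -2.50 in 1-D6, against -0.83 in 1-B and 1.24 in 1-C3. Over 4 primitive endoderm markers it was -5.65 and -4.77 against -3.94 and -1.38. The 4 trophectoderm markers, at -5.31 and -4.43 against -4.49 and -3.18, did not part the clones in this way. In 1-A3 and in 1-D6, 2 of the 4 pluripotent and 2 of the 3 primed epiblast and early mesoderm markers were well above background. Of the 4 primitive endoderm markers, 1 was well above background in 1-A3, 3 in 1-D6, 2 in 1-B and 3 in 1-C3. These means therefore include signals not well above background. The part of these marker sets in the split was not tested. The clones 1-A3, 1-B and 1-C3 shared slide 1 and 1-D6 lay on slide 2, and the part of the slide in the split was not tested. These clones were ordered after their values were seen, so the split is a description without a test.

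Lines with and without the iHAC2 vector were compared in pairs, with each iHAC-free line set against the clone it was sorted from. No gene of the 8 was called between the 2 groups. Dnmt3l was lower in the vector-carrying clone in 3 of the 4 pairs, by -1.3 in 2-B1 against F-B1, -0.96 in 2-C6 against F-C5 and -2.62 in 2-E against F-E4, and higher by 1.00 in 2-N against F-N7. Tet1 had the same order of signs, with -0.82, -0.53, -1.24 and 0.57. Both genes were above all ES and iHAC-free lines in 2-N. Dnmt3a was lower in the vector-carrying clone in all 4 pairs, by -0.75, -0.02, -0.78 and -0.58, and its mean difference was -0.53 with a 95% confidence interval of -1.33 to 0.26. Tet2 was higher in 2-C6 (1.55) and 2-N (1.57) than in the lines sorted from them, lower in 2-B1 (-0.76) and nearly equal in 2-E (-0.07). Tet3 stood out in 1 pair, at 1.83 higher in 2-C6 than in F-C5. Within slide 3 the mean difference of Dnmt3l between the groups was -1.79 and within slide 4 it was -0.15. For Tet1 these values were -0.89 and -0.12, for Tet2 0.74 and 0.41, and for Tet3 0.97 and 0.00.

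The spread over the 4 iHAC-free lines and over the 4 iHAC2-iPS clones differed by gene. The SD was 0.146 in iHAC-free iPS against 1.57 in iHAC2-iPS for Dnmt3l and 0.109 against 0.856 for Tet3. It was 0.452 against 0.553 for Dnmt3b and 0.357 against 0.194 for Dnmt3a, the gene whose iHAC-free lines were the more widely spread. The difference of iHAC-free iPS from ES was -0.01 for Dnmt3l, but the shared estimate of the spread gave it a 95% confidence interval of -2.18 to 2.16. The intervals were -1.02 to 0.93 for Dnmt3a, -2.75 to 2.03 for Dnmt3b, -0.77 to 1.48 for Tet1, -0.98 to 1.30 for Tet2 and -1.71 to 0.14 for Tet3. For Dnmt1 and Uhrf1 a change of 2-fold was thus outside the interval in both directions, and for the other 6 genes it was inside in at least 1 direction. All 4 iHAC-free lines were below both ES lines in Tet3 (mean difference -0.78, adjusted p = 0.319) and in Uhrf1 (-0.31, adjusted p = 0.342).

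**Figure D4:**
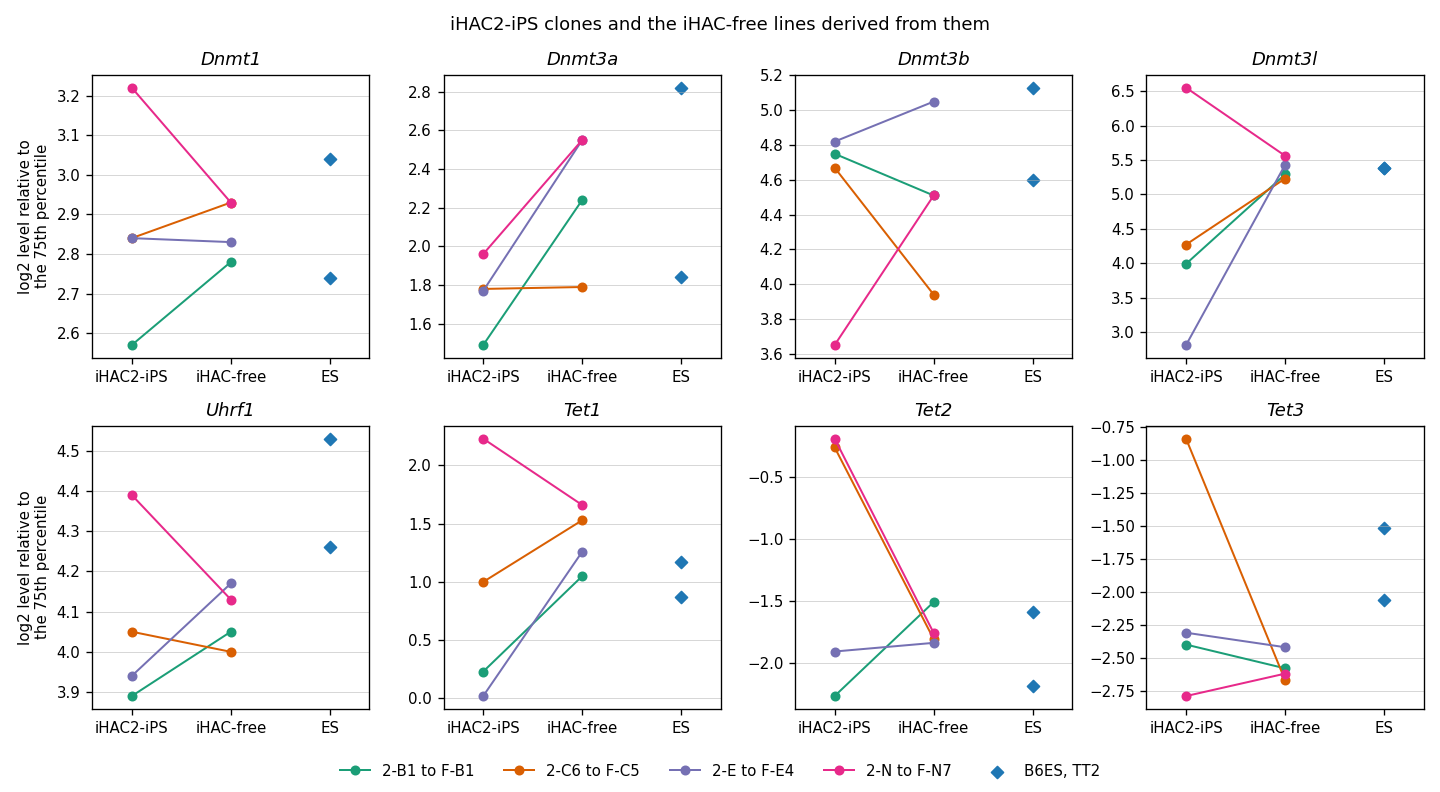
Log2 level relative to the 75th percentile of the array (vertical axes, a separate scale in each panel) of the 8 genes in each iHAC2-iPS clone and in the iHAC-free line derived from it, joined by a line, beside the ES lines B6ES and TT2. In Dnmt3l, Tet2 and Tet3 the iHAC2-iPS clones are spread more widely than the iHAC-free lines, and 2-C6 and 2-N share the highest Tet2 levels.

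The retroviral line 20D17 lay near ES in most of the genes, as a description from 1 array. It differed from the ES mean by 0.00 in Dnmt3l, 0.29 in Dnmt3a, -0.89 in Dnmt3b, -0.51 in Tet1, -0.32 in Tet2 and 0.53 in Tet3 on the log2 scale. MEF differed from the ES mean by -9.30 in Dnmt3l, -7.68 in Dnmt3b, -3.83 in Tet1, -2.05 in Dnmt3a, -1.50 in Uhrf1, -1.06 in Tet2, -0.50 in Dnmt1 and 2.20 in Tet3. Ordered by group mean, Dnmt3l was lowest in MEF, then iHAC1-iPS, then iHAC2-iPS, with ES, iHAC-free iPS and 20D17 at the top. Of the neighbours in this order that held more than 1 array, iHAC1-iPS and iHAC2-iPS differed beyond their spread, and iHAC2-iPS overlapped ES.

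For each of the 8 genes the 3 other genes with the most similar pattern over the 16 arrays, or 2 of these for Dnmt1, were listed by Pearson correlation, among 27773 probes with a gene symbol. The 16 points come from groups that differ in level, so these values describe the pattern over groups. They were Dppa5a (r = 0.984), Pla2g1b (0.985) and 3830431G21Rik (0.987) for Dnmt3l, and Eras (0.973), Slc7a7 (0.975) and Vwa2 (0.971) for Dnmt3b. Dnmt3a was most like Zbtb8a (0.970), Cldn5 (0.968) and Zfp185 (0.965), and Tet1 was most like Bicral (0.971), Ranbp17 (0.970) and Rest (0.970). Dppa5a and Eras are genes known for their expression in ES cells, and Rest encodes a repressor of neuronal genes. Tet3 was most like Ndst1 (0.982), Tceb1 (0.979) and Hipk2 (0.973). The values were lower for Tet2, with Sec14l1 (0.898), Polr3c (0.893) and Bhmt2 (0.890). For the maintenance genes they were 0.894 for E130308A19Rik and 0.881 for Kansl3 with Dnmt1, and 0.968 for Lyar, 0.95 for Dph7 and 0.944 for Xpot with Uhrf1.

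Other genes of the pathway were read in 4 lists with 40 genes tested. In iHAC1-iPS against ES, 7 of the 40 were called, 5 higher and 2 lower, a share of 17.5% beside the 14.7% of all genes. In iHAC1-iPS against iHAC2-iPS it was 8 of 40, 4 higher and 4 lower, or 20% beside 20.3%. Neither share stands far from that of all genes, and no call of the lists as a whole is drawn from them. In iHAC2-iPS against ES 2 of the 40 were called, or 5% beside 6.36% of all genes. Apobec1 was higher (1.65, SE 0.40, adjusted p = 0.0260). Apex1, the abasic-site endonuclease of base excision repair, was lower (-1.27, SE 0.31, adjusted p = 0.0262). Both comparisons with iHAC-free iPS gave 0 of 40 by limma, with 9 genes below an unadjusted p of 0.05 against ES and 5 against iHAC2-iPS. Among all genes 0.368% were called against ES and 0.806% against iHAC2-iPS.

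The maintenance and recruitment partners, 11 genes, had a median difference of -0.14 between iHAC1-iPS and ES. Beside 7.57% of all genes called lower and 7.1% higher, 2 of the 11 were lower and none higher. These were Hells, a chromatin remodeller needed for methylation of repeats (log2 difference -1.48, SE 0.28, adjusted p = 0.00382), and Zfp57, the zinc finger protein that keeps methylation at imprinted loci (-1.27, SE 0.38, adjusted p = 0.0334). Zfp57 was also lower than in iHAC2-iPS (-1.86, SE 0.31, adjusted p = 0.00108). The other 9 genes of this list, among them Pcna and Usp7, which bind Dnmt1, were called in none of the 5 comparisons. Some of the 9 had an adjusted p below 0.05 with a change below 2-fold. Usp7 was lower in iHAC1-iPS than in ES in this way (-0.65, adjusted p = 0.0228). Pcna was higher in iHAC1-iPS than in iHAC2-iPS (0.36, adjusted p = 0.0493).

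Over 7 methyl-CpG binding proteins the median difference of iHAC1-iPS from ES was 0.37. Beside 7.1% of all genes called higher and 7.57% lower, 1 of the 7 was called higher and none lower. This was Zbtb33, a zinc finger protein also known as Kaiso (1.01, SE 0.26, adjusted p = 0.0178). Its mean log2 level was 0.65 in iHAC1-iPS, -0.35 in ES and 0.48 in MEF. Against iHAC2-iPS, Mbd1 was 1.3 higher (adjusted p = 0.00156), and Mbd4, a glycosylase that acts at methylated CpG sites, was 1.08 lower (-1.08, adjusted p = 0.00608).

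Among the 15 genes of demethylation and base excision, 3 were called higher in iHAC1-iPS than in ES, beside 7.1% of all genes. Cxxc4, a CXXC zinc finger protein that binds unmethylated CpG and lies beside Tet2 in the genome, was at least 8.40-fold higher than in ES. It was at least 4.39-fold higher than in iHAC2-iPS. Bounds are given since no ES or iHAC2-iPS array had it well above background. The fitted log2 differences of Cxxc4 were 4.37 (adjusted p = 0.000167) and 3.65 (adjusted p = 9e-05). Its mean log2 level was -2.58 in iHAC1-iPS and -2.43 in MEF. Apobec1 (1.24, adjusted p = 0.0460) and Idh2, a mitochondrial source of the Tet cofactor 2-oxoglutarate (1.26, adjusted p = 0.0191), were the other 2. Against iHAC2-iPS, Gadd45g was higher (1.49, adjusted p = 0.0331), and Gadd45a (-1.19, adjusted p = 0.0363) and Cxxc5 (-1.13, adjusted p = 0.0121) were lower. Tdg, the glycosylase that removes the products of Tet oxidation, was not called in any comparison. Its adjusted p was below 0.05 with a change below 2-fold in iHAC2-iPS against ES (-0.68, adjusted p = 0.0375). The same held in iHAC1-iPS against iHAC2-iPS (0.46, adjusted p = 0.0334).

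Of the 7 genes of the methionine cycle, which supplies the methyl donor, Mtr, the methionine synthase, rose in iHAC1-iPS relative to ES (1.73, SE 0.37, adjusted p = 0.00746), and Mat2a, which makes S-adenosylmethionine, was higher than in iHAC2-iPS (1.28, SE 0.43, adjusted p = 0.0350). Dppa3, which protects DNA from methylation in the early embryo and interacts with Uhrf1, was read separately. Its mean log2 level was 3.85 in ES, 1.29 in iHAC2-iPS, 3.77 in iHAC-free iPS and -6.13 in iHAC1-iPS, where it was well above background in 1 of the 4 clones. It was called lower in iHAC1-iPS than in ES (-9.99, SE 0.80, adjusted p = 2.77e-05) and than in iHAC2-iPS (-7.42, SE 0.65, adjusted p = 3.05e-05), fitted values that use the signals of the 3 clones not well above background. The 10 genes of S phase and the cell cycle, with which Dnmt1 and Uhrf1 are known to rise, had a mean level of 4.75 to 4.96 in iHAC1-iPS, 5.11 to 5.33 in ES and 3.53 in MEF. Of these, 2 were called lower in iHAC1-iPS than in ES and none higher, Ccne1 (-1.27, adjusted p = 0.0246) and Mcm3 (-1.04, adjusted p = 0.00164). Among all genes 14.7% were called in this comparison, 7.57% as lower. Genes of the lists were named by the 8 largest called differences of a comparison, and Zbtb33, Mcm3, Mbd4, Pcna, Usp7 and Tdg, outside that choice, were named after their values were seen.

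**Figure D5:**
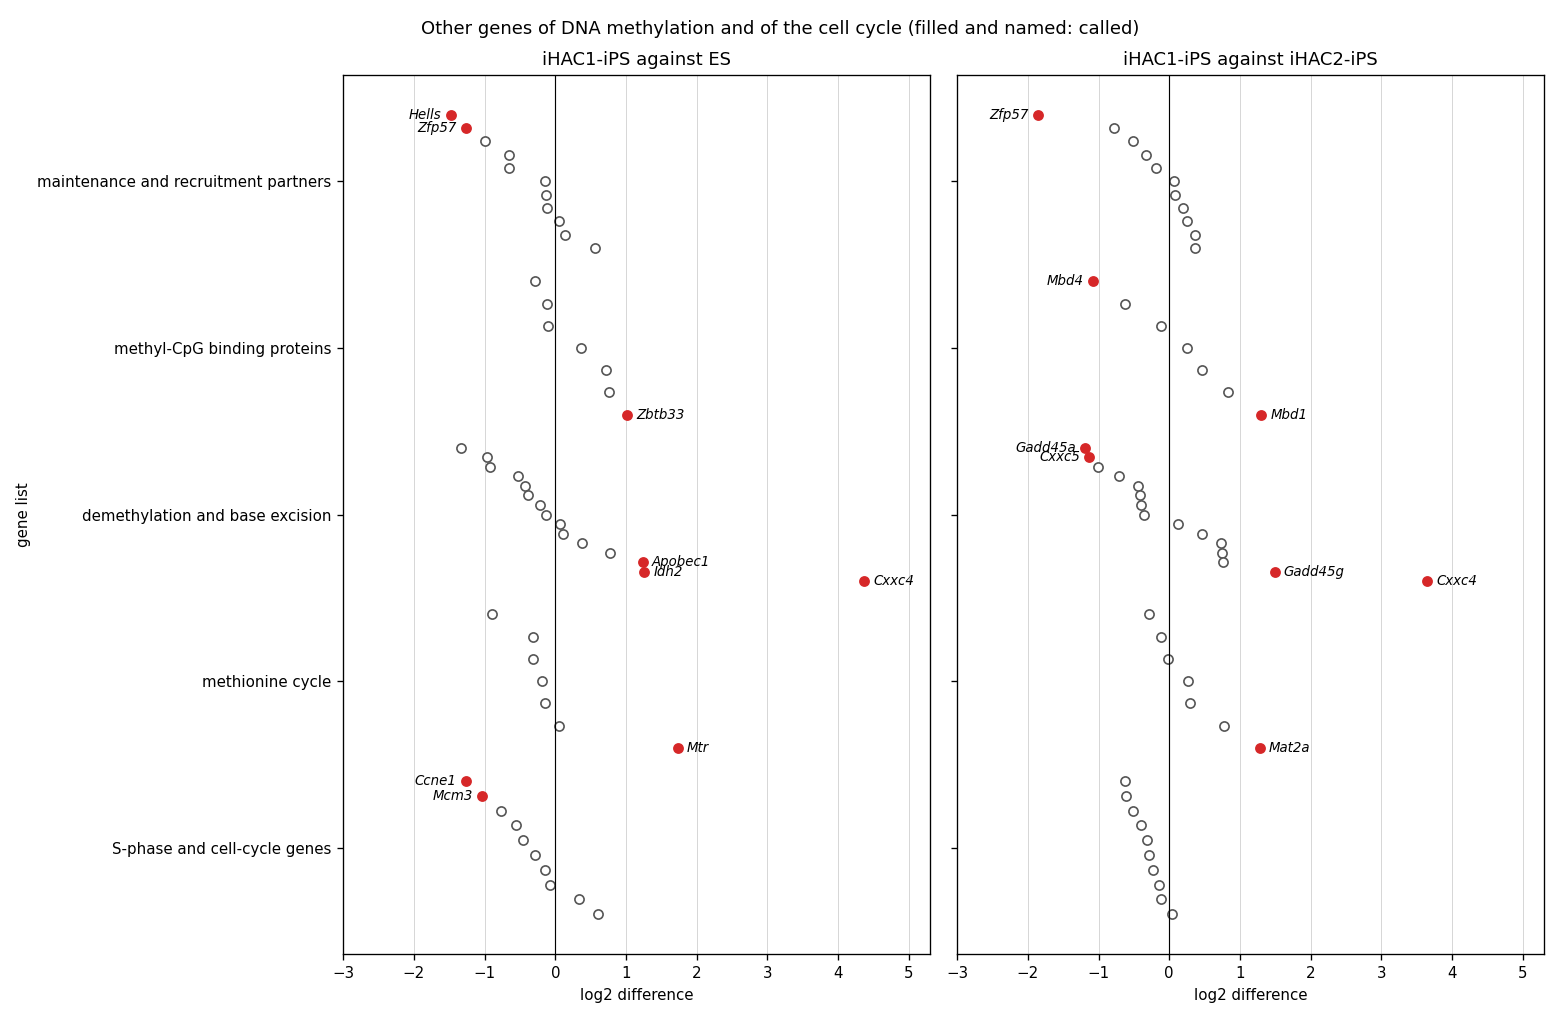
Log2 difference (horizontal axes) of the genes in 4 lists of the methylation pathway and in 1 list of S-phase and cell-cycle genes, for iHAC1-iPS against ES (left) and against iHAC2-iPS (right), with 1 point per gene; filled points with names were called. Cxxc4 lies farthest to the right in both panels, at fitted values that exceed its bounds because the gene was not well above background in ES or iHAC2-iPS, and Zfp57 lies to the left in both.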

How the data were processed

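Total RNA of the 16 lines was labelled with Cy3 and hybridised to Agilent mouse arrays of 1 colour. The authors scanned and quantified them with Agilent Feature Extraction 10.7.1.1 (2 slides) and 10.7.3.1 (2 slides). The deposited scanner tables give, per spot, an intensity from which Feature Extraction had subtracted its fitted background. The deposited value table holds log2 values with each gene centred by the authors. Against the scanner files it had slope 1 and r = 1 on every array, with column medians that differ between arrays, and it served as an alternative.

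Intensities of spots that were neither controls nor outliers were averaged per probe, taken as log2, and set relative to the 75th percentile of their array. Of 41174 probes, the 31425 that were well above background somewhere in the 16 arrays were fitted with limma 3.58.1 in R 4.3.3, with 6 groups. Benjamini-Hochberg adjustment ran over all probes. The brightest probe of a gene stood for it, and for named list genes the 8 largest called differences of a comparison were taken. On simulated data with 200 changed probes, 65% to 73% of changes of 2 and 92% to 95% of changes of 4 on the log2 scale were recovered over the 5 comparisons. The number of arrays limits the precision. Groups came from the labels. Each iHAC-free line stems from 1 iHAC2-iPS clone, a pairing given by the study, and the deviations of such pairs from their group means correlated at r between -0.219 and 0.0799. The genes and lists were chosen with earlier results of these data known. Alternatives were quantile normalization, the value table, normexp background correction (offset 50), 2 other filters on dim probes, slide as a block, fits of the compared groups alone, the mean of all probes of a gene, the pairing as a block and leaving out each array. Promoters were read from RefSeq windows with Python 3.11.15. Protein sequences and a genome of the mm9 build were not used here. A gene of the pathway lists and a gene most like Dnmt1 are not reported here.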

Additional observations from a re-analysis of the deposited data

Results flagged for a closer look

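In 42 groups of 4 arrays, 1 for each probe and group with at least 4 lines, the highest and the lowest line were compared with the others by Dixon's ratio, the gap to the nearest line divided by the range of the group. The ratio exceeded the 95% critical value of 0.829 in 2 of them, and chance gives about 1 in 20. Dnmt3b in iHAC2-iPS was low in 2-N, at a log2 level of 3.65 against 4.67 to 4.82 in the other clones (ratio 0.872). The same clone had the highest Dnmt3l and Tet1 levels of its group. Uhrf1 on A_52_P314705 was high in the iHAC1-iPS clone 1-B, at 4.49 against 4.10 to 4.14 in the other clones (ratio 0.897), within the range of ES.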

How the results depend on the processing

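The numbers of the 8 genes called stayed at 4 in iHAC1-iPS against ES, and at 0 in the 3 comparisons without iHAC1-iPS, under normexp, quantile normalization, the deposited value table, both other filters, the slide block, the mean of all probes and the fit of compared groups alone. Pairing each iHAC-free line with its clone of origin as a block also gave 0 and changed no call. In iHAC1-iPS against iHAC2-iPS the number was 6, or 4 with only these groups fitted, and 5 to 6 with 1 array left out. In iHAC1-iPS against ES it was 2 to 5 with 1 array left out: 2 without B6ES (Dnmt3l and Tet3), 2 without TT2 (Dnmt3a and Dnmt3l), and 5 without 1-B or 1-C3. For that comparison the slide block rests on 1 iHAC1-iPS clone, 1-D6, the clone that shares a slide with ES. The sign changed only in uncalled differences near 0. In iHAC-free iPS against ES, Dnmt1 gave 0.00 with normexp and 0.10 with quantile normalization, Dnmt3a 0.06 with quantile normalization and 0.07 with the slide block, and Dnmt3l 0.03, 0.17 and 0.04 with normexp, quantile normalization and the slide block. In iHAC2-iPS against ES, Dnmt1 gave 0.05 with quantile normalization. With 1 array left out, the ranges that crossed 0 were -0.17 to 0.12 for Dnmt1 and -0.61 to 0.13 for Tet1 in iHAC2-iPS against ES. They were -0.17 to 0.12 for Dnmt1, -0.54 to 0.45 for Dnmt3a, -0.07 to 0.04 for Dnmt3l and -0.14 to 0.46 for Tet2 in iHAC-free iPS against ES. Between iHAC2-iPS and iHAC-free iPS they were -0.12 to 0.10 for Dnmt1, -0.21 to 0.25 for Dnmt3b and -0.13 to 0.04 for Uhrf1. The cause of these shifts was not tested. With 2 ES arrays, each ES line decides some calls, and the shared spread makes the intervals of Dnmt3l and Dnmt3b wide.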

Other observations

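Markers of other early lineages were read in the same arrays beside the methylation genes. Of 4 trophectoderm markers, 2 were lower in iHAC1-iPS than in ES (14.7% of all genes were called in either direction). These were Cdx2 (-4.64, adjusted p = 0.0127) and Elf5, a transcription factor of the trophoblast. In iHAC2-iPS against ES (6.36% of all genes called) 2 were lower, Cdx2 and Gata3, and Elf5 was higher. Cdx2 was well above background in both ES arrays, 2 of 4 iHAC1-iPS clones and 0 of 4 iHAC2-iPS clones. Its fitted differences from ES therefore use signals not well above background. Elf5 was well above background in 1 of 2 ES arrays, 0 of 4 iHAC1-iPS clones, 3 of 4 iHAC2-iPS clones and 1 of 4 iHAC-free lines, so its fitted differences use signals below that level. They were -2.04 for iHAC1-iPS against ES (adjusted p = 0.0209), 2.18 for iHAC2-iPS against ES (0.0284), -4.22 for iHAC1-iPS against iHAC2-iPS (8.74e-05) and 2.35 when iHAC2-iPS was set against iHAC-free iPS (0.0302). Gata3 was called the other way from Elf5 in iHAC1-iPS against iHAC2-iPS (2.1, adjusted p = 0.000186), where 20.3% of all genes were called. It was also called the other way in iHAC2-iPS against iHAC-free iPS (-1.37, adjusted p = 0.0283), where 0.806% of all genes were called. The promoter of Elf5 is known as a target of DNA methylation in ES cells, and methylation itself was not analysed here. The 3 tested primitive endoderm markers and the 3 markers of primed epiblast and early mesoderm were called in no comparison by limma, and none of them had an unadjusted p below 0.05. Elf5, Cdx2 and Gata3 were singled out after their values were seen.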
